A study of Mus musculus with 8 samples.

Results

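The 10 genes described here encode the transcription factors that drive and modulate the circadian clock, and all 10 were found among the 55487 genes of the count table by matching their Ensembl identifiers to the symbols Arntl (also called Bmal1), Clock, Npas2, Rora, Nr1d1, Nr1d2, Dbp, Tef, Hlf and Nfil3. RNA came from the hypothalamus of 8 mice of the inbred strain C57BL/6J, which were kept under 14 hours of light and 10 hours of dark with free access to food and water. In the hypoxia group, 4 mice breathed 7% oxygen in a chamber for 2 hours. In the normoxia group, 4 mice were kept at 21% oxygen for the same 2 hours. The hour of day at which the mice were sampled is not given in the sources used here, and the tissue is a dissected piece of brain in which neurons, glia and vessels were sequenced together.

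ARNTL pairs with CLOCK or, mainly in the forebrain, with its relative NPAS2, and the pair binds E-box sequences to activate the Per and Cry repressor genes, the REV-ERB genes Nr1d1 and Nr1d2, and Dbp. REV-ERB proteins repress Arntl through RORE sequences, where the nuclear receptor RORA activates, and this forms a further loop. The PAR-bZIP factors DBP, TEF and HLF activate genes through D-box sequences, and NFIL3 represses through the same sequences. The hypothalamus holds the suprachiasmatic nucleus, the master pacemaker of the mammalian clock, and ARNTL, CLOCK and NPAS2 belong to the same bHLH-PAS protein family as the subunits of the hypoxia-inducible factor.

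Libraries held 16994473 to 21694383 counts, and the 10 genes were counted between 147 times (the lowest library of Nfil3) and 6770 times (the highest of Tef). Markers of the hypothalamus (10 of 10 tested, among them Hcrt, Pmch, Oxt and Avp) summed to 659.7 to 786 CPM in hypoxia and 356 to 798 CPM in normoxia, with the lowest sum in normoxia replicate 2. Of 6 astrocyte markers 1 rose, and the 6 summed to 1553.2 to 1690.2 CPM in hypoxia and 1543.2 to 1673.6 CPM in normoxia. Of 6 endothelial markers 1 fell, and the 6 summed to 205 to 235 CPM in hypoxia and 222 to 268 CPM in normoxia. The 6 oligodendrocyte markers (0 called) summed to 6169.8 to 9230.5 CPM in hypoxia and 6015.9 to 10784.2 CPM in normoxia. Their lowest sum was in normoxia replicate 2 and their highest in normoxia replicate 1. The part of these cells in the values was not tested. CPM is a gene's count relative to the total of its library after scaling. The libraries are biological replicates per the series' design text, and each p-value reflects only the spread between libraries. In the test used, the spread of a gene was estimated with help from that of the other genes. Within a group, pairs of libraries differed by more than sampling noise, so each was counted once.

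After 2 hours of low oxygen, none of the 10 clock factor transcripts passed the test. Of the 10, 0 had an adjusted p under 0.05 (edgeR quasi-likelihood test with Benjamini-Hochberg adjustment over 17047 genes), where 2.15% of all genes tested did. At an unadjusted p under 0.05 there were 2, Tef and Nr1d2, where 19.3% of all genes were. DESeq2 called 1, Tef, where it called 6.04% of all genes. The 4 hypoxia and 4 normoxia libraries did not overlap in 1 of the 10, again Tef, where 13.4% of all genes had no overlap, so these shares lie near or below the background. Log2 fold changes of the 10, hypoxia over normoxia, ran from −0.15 to 0.17 with a median of −0.08, and 2 were positive. Over all genes tested the median was −0.01. The median size of the change regardless of sign was 0.09 for the 10 genes and 0.12 for all genes tested.

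The intervals of these changes were narrow for most of the genes. For 7 of the 10 (Arntl, Clock, Nr1d1, Nr1d2, Dbp, Tef and Hlf), the 95% interval of the fold change lay within 0.804 to 1.22. For Npas2, Rora and Nfil3 the intervals were wider, from 0.647 to 1.52, 0.640 to 1.38 and 0.692 to 1.27, so changes within these bounds, in either direction, are not excluded. Within-group standard deviations of log2 CPM were 0.07 for Tef and Clock, 0.41 for Rora and 0.47 for Npas2, and of all genes tested, 91.8% varied less within groups than Npas2.

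**Figure D1:**
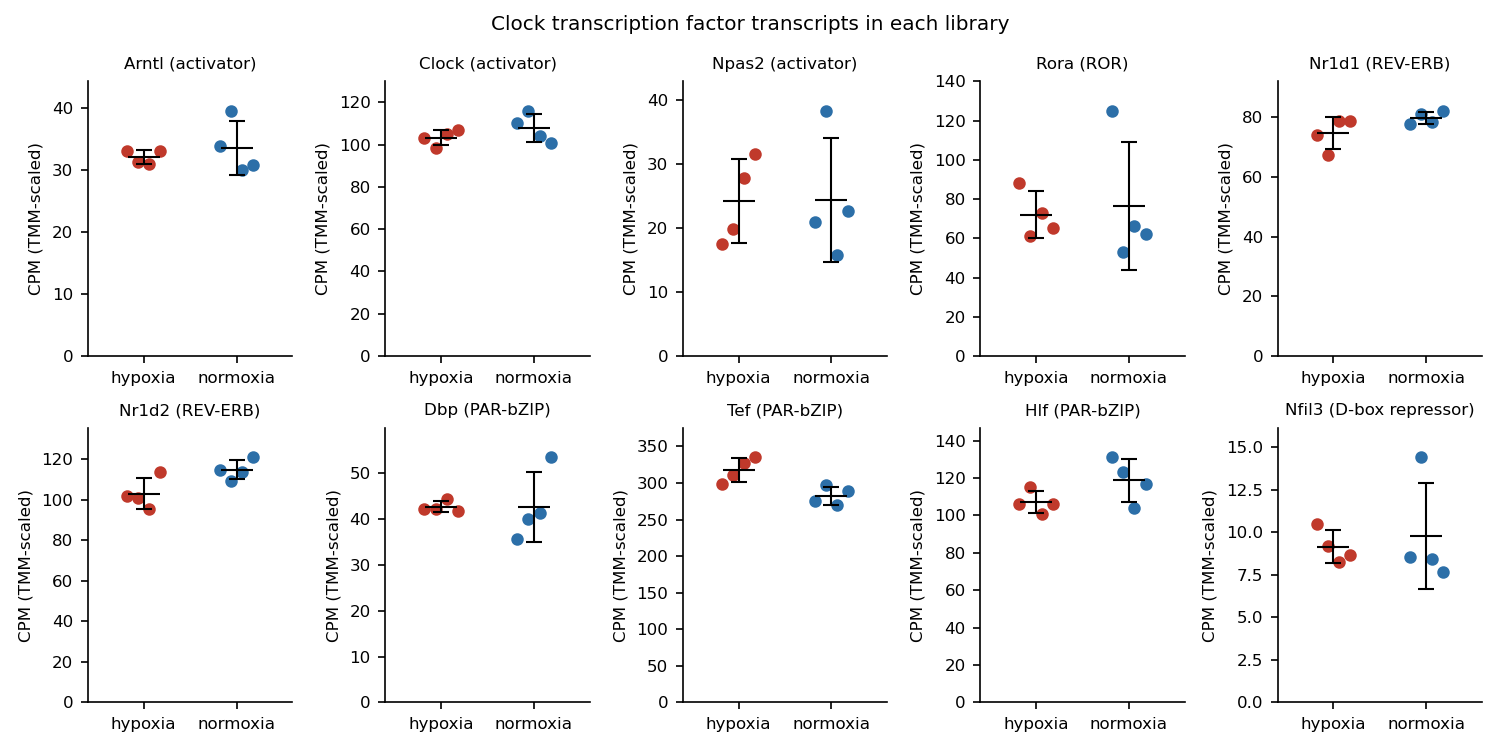
CPM of the 10 clock factor genes in each library, hypoxia left of normoxia, with 1 point per library and the mean ± SD of 4 libraries in black; each axis starts at 0. The groups are separate in the panel of Tef, and single normoxia libraries stand high in the panels of Npas2, Rora, Dbp and Nfil3.

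**Figure D2:**
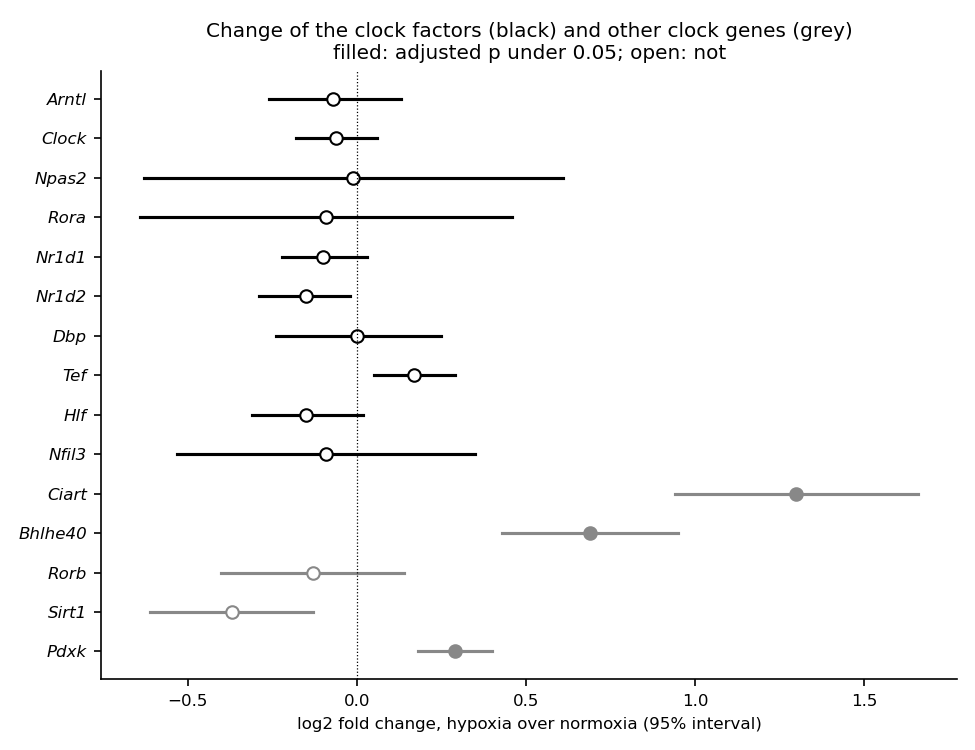
Log2 fold change of hypoxia over normoxia with its 95% interval for the 10 factors (black) and for 5 other clock genes (grey); filled points had an adjusted p under 0.05. No point of the 10 factors is filled, and Ciart, Bhlhe40 and Pdxk are.

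Levels set per length of exon gave the same order in both groups. Tef was the most abundant at 40.4 CPM per kb of exon in hypoxia and 35.9 in normoxia, and its range over the 8 libraries (34.4 to 42.6) did not overlap that of the next gene, Nr1d1 (24.3 in hypoxia and 25.9 in normoxia). Nr1d2, Hlf and Dbp followed at means of 20.2, 16.9 and 14.2 over the 8 libraries, each overlapping its neighbour in range. Dbp did not overlap Clock, the next in order at a mean of 7.70. Clock, Rora, Npas2, Nfil3 and Arntl lay at means from 4.36 to 7.70, with neighbours overlapping in range. Per kb, the REV-ERB and PAR-bZIP genes thus lay above Arntl, Clock, Npas2 and Rora in both groups. That order depends on the length used, which covers all annotated exons of a gene (13727 bases for Clock and 2993 for Dbp). In plain CPM, Clock (103 in hypoxia and 108 in normoxia) lay above Nr1d1 (74.7 and 79.8) and Dbp (42.6 in both). The levels of Nr1d1 and Dbp are also uncertain because of genes on the opposite strand, as given below.

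Among the activators, Arntl was at 33.1, 31.2, 30.9 and 33.0 CPM in hypoxia replicates 1 to 4, against 33.8, 39.5, 30.0 and 30.8 CPM in normoxia. The groups overlap, and the highest library is normoxia replicate 2. Its log2 fold change was −0.07 ± 0.09 (SE; 95% interval −0.26 to 0.13; edgeR quasi-likelihood, Benjamini-Hochberg adjusted p = 0.726), and without normoxia replicate 2 it was 0.03. Clock was at 103, 98.5, 105 and 107 CPM in hypoxia, against 110.3, 116, 104 and 101 CPM in normoxia. It had the smallest standard error of the activators, with a log2 fold change of −0.06 ± 0.05 (interval −0.18 to 0.06; adjusted p = 0.569), and its sign was the same with any 1 library left out. The ratio of Arntl to Nr1d1, in CPM per kb, was 0.176 ± 0.0129 in hypoxia and 0.172 ± 0.0216 in normoxia (mean ± SD of 4 libraries each), with overlapping groups.

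Npas2 varied more between mice than any other of the 10. It was at 17.5, 19.9, 27.8 and 31.5 CPM in hypoxia, against 20.9, 38.3, 15.7 and 22.6 CPM in normoxia. Low and high libraries occur in both groups, and its log2 fold change was −0.01 ± 0.27 (interval −0.63 to 0.61; adjusted p = 0.987). Without normoxia replicate 2 it was 0.29, and it was 0.12 and 0.07 without hypoxia replicate 1 or 2. Markers of the striatum, a neighbouring forebrain region rich in dopamine receptors, moved with it over the libraries. The 6 striatal genes (Drd1, Drd2, Adora2a, Ppp1r1b, Rgs9 and Penk; 6 of 6 tested, 0 called, none at 0) summed to 501, 571, 766 and 821 CPM in hypoxia, against 292, 799, 323 and 627 CPM in normoxia. The same 4 libraries (hypoxia replicates 3 and 4, normoxia replicates 2 and 4) were the highest for Npas2 and for the striatal sum. The part of tissue composition in the Npas2 values was not tested.

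**Figure D3:**
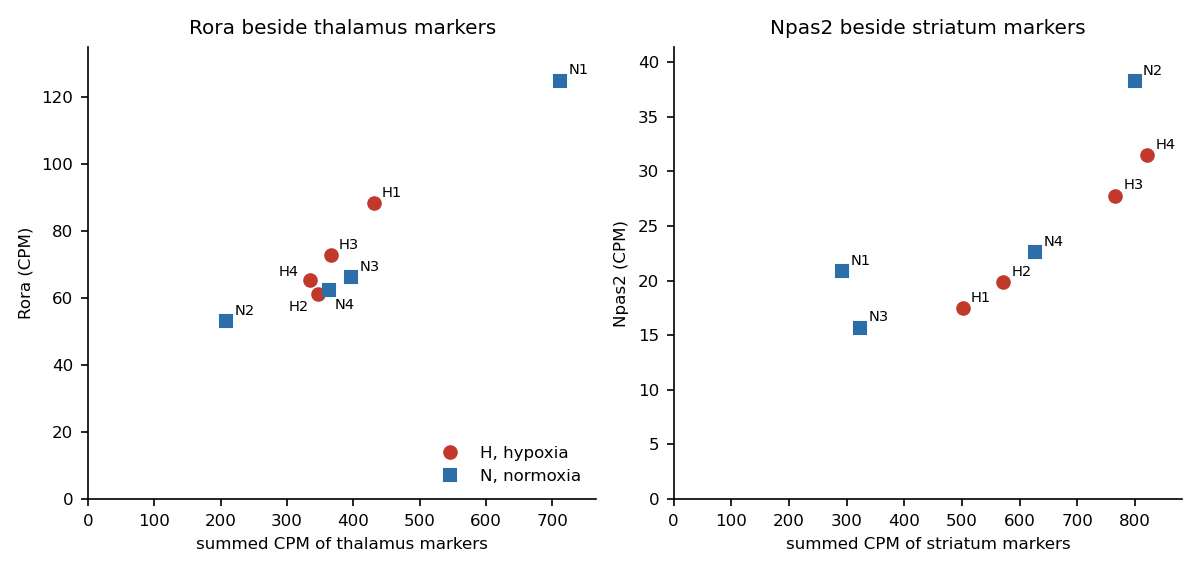
Left, Rora CPM against the summed CPM of 8 thalamus markers; right, Npas2 CPM against the summed CPM of 6 striatum markers, with 1 point per library (H, hypoxia; N, normoxia; the number is the replicate). Normoxia replicate 1 is the highest in both measures on the left, and normoxia replicate 2 and hypoxia replicate 4 are at the upper right on the right.

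Rora, the activator at RORE sequences, was at 88.4, 61.3, 72.9 and 65.3 CPM in hypoxia, against 125, 53.2, 66.4 and 62.3 CPM in normoxia. Normoxia holds both the highest and the lowest library. Its log2 fold change was −0.09 ± 0.25 (interval −0.64 to 0.46; adjusted p = 0.875), and it was 0.25 (adjusted p = 0.347) without normoxia replicate 1. Rora is strongly expressed in the thalamus, which borders the hypothalamus. The 8 thalamus markers (Tcf7l2, Prkcd, Ramp3, Synpo2, Lhx9, Shox2, Plekhg1 and Slc17a6; 8 of 8 tested, 0 called, none at 0) summed to 431, 347, 366 and 335 CPM in hypoxia, against 712, 208, 397 and 363 CPM in normoxia. Normoxia replicate 1 was the highest, hypoxia replicate 1 the next and normoxia replicate 2 the lowest for Rora and for the thalamus sum. Of that lowest sum, Slc17a6 alone gave 114 CPM, against 248 CPM in hypoxia replicate 2. Ramp3, Synpo2 and Shox2 were lowest in hypoxia replicate 2, and Tcf7l2, Prkcd, Lhx9, Plekhg1 and Slc17a6 in normoxia replicate 2. Oligodendrocyte markers were also highest in normoxia replicate 1 and lowest in normoxia replicate 2, but summed to only 6169.8 CPM in hypoxia replicate 1. The part of tissue composition in the Rora values was not tested, and in bulk tissue fewer cells of a type and less RNA per cell cannot be told apart. Rorb, a relative of Rora, had 31.4 ± 3.55 CPM (SD) in hypoxia and 34.4 ± 5.12 CPM in normoxia (n = 4 each; log2 −0.13, edgeR adjusted p = 0.596), and its highest and lowest libraries were also normoxia replicates 1 and 2.

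The REV-ERB genes had the same sign and small changes. Nr1d2 was at 102, 101, 95.5 and 114 CPM in hypoxia, against 115, 109.5, 114 and 121 CPM in normoxia. Only hypoxia replicate 4 reaches the normoxia range. Its log2 fold change was −0.15 ± 0.06 (interval −0.29 to −0.02), with an unadjusted p of 0.0316 and an adjusted p of 0.211 by edgeR. Without both normoxia replicate 2 and hypoxia replicate 4, it was −0.23 with an edgeR adjusted p of 0.0216. That fit called 6.98% of all genes. For Nr1d2 these are the lowest normoxia and the highest hypoxia library, so leaving them out widens the difference. Over all alternatives the adjusted p of Nr1d2 ran from 0.0216 to 0.459. Nr1d1 was at 74.0, 67.2, 78.7 and 78.8 CPM in hypoxia, against 77.7, 80.9, 78.5 and 82.1 CPM in normoxia. The hypoxia libraries reach lower, to replicate 2, while the normoxia libraries lie close together, and the log2 fold change was −0.10 ± 0.06 (interval −0.22 to 0.03; adjusted p = 0.394). Exons of Nr1d1 share 263 bases with Thra, the thyroid hormone receptor alpha gene on the opposite strand, which was more abundant (539.6 CPM in hypoxia and 515 in normoxia, log2 0.07, adjusted p = 0.541). The strand setting of the counting is not given in the sources used here, so the level of Nr1d1 is uncertain. The ratio of Rora to the sum of both REV-ERB genes, in CPM per kb, was 0.127 ± 0.0221 in hypoxia and 0.125 ± 0.0544 in normoxia (mean ± SD of 4 libraries each).

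Tef, on chromosome 15 (81802421 to 81826863, GRCm38), had the smallest p of the 10. It was at 299, 311, 327 and 335 CPM in hypoxia, against 275, 297, 270.2 and 289 CPM in normoxia. Every hypoxia library lies above every normoxia library, with hypoxia replicate 1 and normoxia replicate 2 almost touching. Its mean was 318 ± 16 CPM (SD) in hypoxia and 283 ± 12.4 CPM in normoxia, with 4 libraries each. The log2 fold change was 0.17 ± 0.05 (SE; interval 0.05 to 0.29). The unadjusted p was 0.00914 and the adjusted p 0.121 by edgeR, and DESeq2 gave a log2 fold change of 0.18 with an adjusted p of 0.0465. Over all alternatives the adjusted p ran from 0.0465 to 0.313, and the log2 fold change stayed positive. With each library left out in turn it ran from 0.15 to 0.20. Gm17597, which shares 193 exon bases with Tef on the opposite strand, was at about 1 CPM in both groups.

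Hlf had the opposite sign, at 106, 115, 101 and 106 CPM in hypoxia, against 131, 123, 104 and 117 CPM in normoxia. The groups overlap through normoxia replicate 3, which lies below all but hypoxia replicate 3, and the log2 fold change was −0.15 ± 0.07 (interval −0.31 to 0.02; adjusted p = 0.299). Dbp was at 42.2, 42.2, 44.4 and 41.7 CPM in hypoxia, against 35.7, 40.0, 41.2 and 53.4 CPM in normoxia. The hypoxia libraries are nearly equal and lie inside the normoxia range, the means were 42.6 in both groups, and the log2 fold change was 0.00 ± 0.11 (interval −0.24 to 0.25; adjusted p = 0.999). It was 0.14 without normoxia replicate 4 and −0.07 without normoxia replicate 1. Dbp shares 539 exon bases with Sphk2, a sphingosine kinase gene on the opposite strand at 29.6 CPM in hypoxia and 33.6 in normoxia (log2 −0.18, adjusted p = 0.218), so its level is uncertain in the same way as that of Nr1d1. The ratio of Tef to Hlf within a library does not depend on the scaling of libraries. In CPM per kb it was 2.41, 2.29, 2.74 and 2.69 in hypoxia, against 1.79, 2.05, 2.21 and 2.10 in normoxia, with no overlap. This ratio was chosen after its values were seen and was not tested.

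Nfil3, the repressor at D-box sequences, was the least counted of the 10, at 10.5, 9.17, 8.26 and 8.69 CPM in hypoxia, against 8.56, 14.4, 8.44 and 7.67 CPM in normoxia. Normoxia replicate 2 stands above all other libraries. The log2 fold change was −0.09 ± 0.20 (interval −0.53 to 0.35; adjusted p = 0.834), and without normoxia replicate 2 it was 0.16 (adjusted p = 0.418). The summed level of Dbp, Tef and Hlf over that of Nfil3, in CPM per kb, was 13.1 to 17.5 in hypoxia and 9.78 to 19.0 in normoxia, where the lowest value was that of replicate 2.

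**Figure D4:**
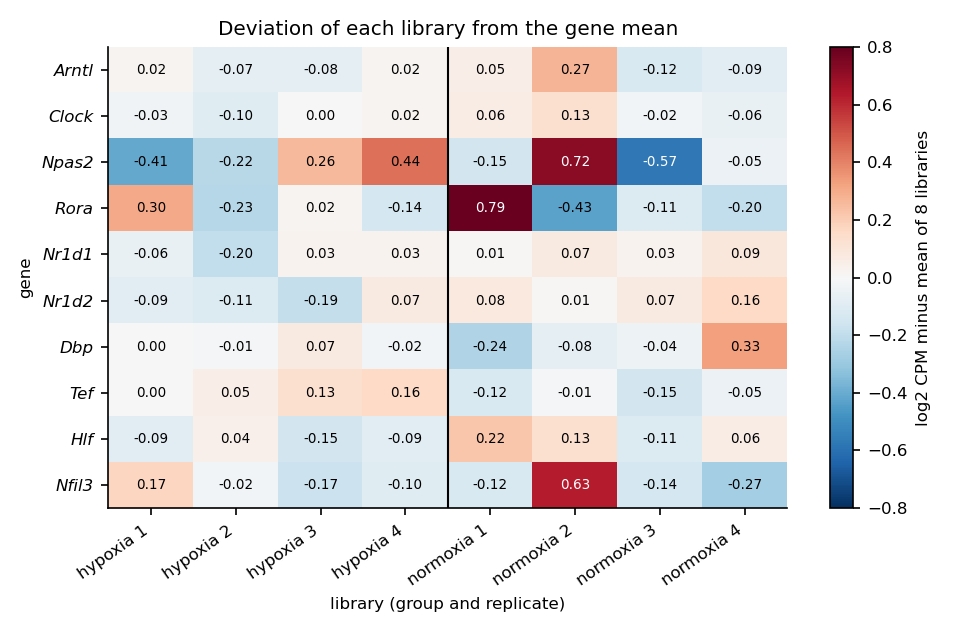
Log2 CPM of each of the 10 genes in each library minus the gene's mean over the 8 libraries, with hypoxia left of the line and normoxia right of it. The largest deviations are those of Rora in normoxia replicate 1 (0.79), Npas2 in normoxia replicate 2 (0.72) and Nfil3 in normoxia replicate 2 (0.63).

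Across the 10 genes, normoxia replicate 2 was the highest library for 4 (Arntl, Clock, Npas2 and Nfil3) and the lowest for Rora. Markers of cortex and hippocampus (7 genes, among them Slc17a7 and Neurod6; 6 tested, 0 called, none at 0 in every library) summed to 616 CPM in that library, against 112 to 187 CPM in hypoxia and 117 to 189.8 CPM in the other normoxia libraries. Pituitary markers (5 genes, 3 tested, 0 called) summed to 80.3 CPM there, against 0.193 to 42.3 CPM in hypoxia and 0.954 to 9.64 CPM in the other normoxia libraries. Their part in these values was not tested. Leaving out this library turned the sign of Arntl, Npas2, Dbp and Nfil3, none of which was called in any of the 8 fits with 1 library left out. Clock, Nr1d1, Nr1d2, Tef and Hlf had the same sign in all 8 fits.

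**Figure D5:**
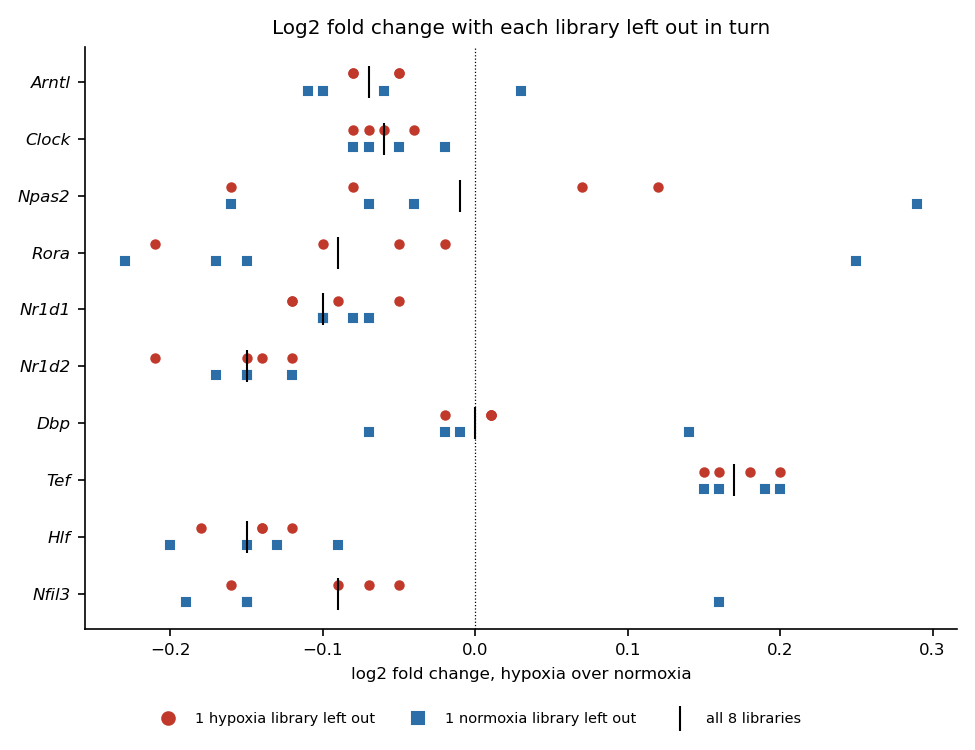
Log2 fold change of hypoxia over normoxia for the 10 genes with each of the 8 libraries left out in turn (circles, a hypoxia library left out; squares, a normoxia library left out; bars, all 8 libraries). Points lie on both sides of 0 for Arntl, Npas2, Rora, Dbp and Nfil3.

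The genes around these factors gave 3 calls. Of 36 other clock genes, 35 were tested, and 3 rose while 0 fell (edgeR adjusted p under 0.05), where 0.915% of all genes tested rose and 1.23% fell (156 and 210 genes, and 146 and 342 with library size as the only scaling). Among the 35, 4 were called higher and 1 lower with library size as the only scaling, 6 higher and 2 lower by DESeq2, and 8 higher and 2 lower without both normoxia replicate 2 and hypoxia replicate 4. The gene lists were chosen with earlier results of these data known, so the share called among the 35 is not an independent comparison. The median log2 fold change of the 35 was 0.02. Of the 8 repressors, Ciart and Bhlhe40 rose. Ciart, which represses the ARNTL and CLOCK pair, was at 18.4 ± 4.08 CPM in hypoxia and 7.46 ± 0.782 CPM in normoxia (mean ± SD of 4 libraries each), and rose by a log2 of 1.30 ± 0.16 (SE; edgeR adjusted p = 0.00986). It was called in 7 of 8 fits with 1 library left out, with an adjusted p of 0.052 without hypoxia replicate 1. Bhlhe40, a repressor that competes at E-boxes and is also a target of the hypoxia-inducible factor, was at 111 ± 19.3 CPM in hypoxia and 68.8 ± 3.07 CPM in normoxia, a log2 of 0.69 ± 0.12 (edgeR adjusted p = 0.0284). Of the 8 repressors, 6 had a positive log2 fold change and 4 an unadjusted p under 0.05. Besides the called pair these were Per1, with a log2 of 0.68 and an edgeR adjusted p of 0.0524, and Bhlhe41, with 0.29 and 0.138. Cry1 and Cry2 had 0.12 and 0.04, and Per2 and Per3 had −0.11 and −0.08 (these 6 are given after their values were seen).

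The third call was Pdxk, pyridoxal kinase, which makes the active form of vitamin B6 and is known in mouse brain as a target of the PAR-bZIP factors. Pdxk, on chromosome 10 (78436744 to 78464975, GRCm38), was at 396, 402, 399 and 384 CPM in hypoxia, against 319, 301, 340.5 and 333 CPM in normoxia. The groups are well apart, and it rose by a log2 of 0.29 ± 0.05 (SE; interval 0.18 to 0.40; edgeR adjusted p = 0.0284). Of its 5397 exon bases, Pdxk shares 2104 with 4921516A02Rik on the opposite strand (0.0370 CPM in hypoxia and 0.0261 in normoxia). Its level is therefore uncertain in the same way as that of Nr1d1. Bhlhe40 and Pdxk were each called in 2 of 8 fits with 1 library left out, those without hypoxia replicate 4 or normoxia replicate 2, and their adjusted p reached 0.12 in the others. Pdxk was the 1 call among 6 tested output genes. The 10 kinases, ligases and other modifiers had 0 calls by edgeR (3 at an unadjusted p under 0.05). The 9 cofactors had 0 calls (1 at an unadjusted p under 0.05), and Sirt1, a deacetylase that binds CLOCK, had 16.3 ± 2.10 CPM in hypoxia and 21.1 ± 2.07 CPM in normoxia (log2 −0.37, edgeR adjusted p = 0.101). DESeq2 called Sirt1 at an adjusted p of 0.0422.

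Among the genes with the library profile closest to that of Tef were Mgat2, a glycosylation enzyme gene, and Rbbp7, a histone-binding protein gene. Their centred log2 CPM differed from those of Tef by a root mean square of 0.034 and 0.037 over the 8 libraries. Each had a log2 fold change of 0.14, and their adjusted p were 0.219 and 0.143 by edgeR.

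Promoter sequence was read for all 10 genes from RefSeq (GRCm38.p6), as 14 windows of 300 bases that run from 250 bases before a start site to 50 bases after it. The E-box CACGTG, which reads the same on both strands, was found in 2 of the 14, both of Tef, where 7.15% of 32851 promoter windows of the same length hold it. Of the other clock genes called, the windows of Ciart and Pdxk hold it, Ciart 3 times, and Bhlhe40 was not searched here. No search is given here for the other clock genes that were not called, so these windows cannot be compared with theirs. The stretches around these E-boxes are shown because the 3 genes are the one factor without overlap between the groups and 2 of the called neighbours; capitals mark the E-box, which also contains the ACGTG core bound by the hypoxia-inducible factor.
Tef, upstream start site (chr15:81802518-81802577, plus strand): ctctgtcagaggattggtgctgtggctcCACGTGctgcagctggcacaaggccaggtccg
Tef, downstream start site (chr15:81811248-81811307, plus strand): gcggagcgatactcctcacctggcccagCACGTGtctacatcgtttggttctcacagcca
Ciart (chr3:95882259-95882358, minus strand): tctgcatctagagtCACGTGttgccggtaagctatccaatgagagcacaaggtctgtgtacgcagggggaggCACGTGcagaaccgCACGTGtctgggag
Pdxk (chr10:78465097-78465156, minus strand): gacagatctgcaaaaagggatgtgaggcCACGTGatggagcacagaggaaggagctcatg

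The E-boxes of Tef begin 127 and 138 bases before its start sites, those of Ciart 116, 58 and 44 bases, and that of Pdxk 180 bases. The hypoxia-inducible factor core, ACGTG or GCGTG on either strand, is common and was found in 10 of the 14 windows of the 10 genes, where 43.8% of all windows hold it. The D-box TTATGTAA or TTACGTAA, on either strand, was found in 0 of the 14, where 1.06% of all windows hold it. A match is a run of letters and not a measured site, and no match says only that these letters are not in these windows.

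The RORE letters TAGGTCA or TGGGTCA, on either strand, were found in 2 of the 14 windows, where 6.45% of all windows hold them. They stand in the windows of Arntl and Nfil3, genes on which REV-ERB and ROR proteins are known to act, and are shown with the motif in capitals. In Arntl the match begins at base 31 after the start site. In Nfil3 it is on the opposite strand, so that its reverse complement is printed, and begins 12 bases before the start site.
Arntl (chr7:113207530-113207559, plus strand): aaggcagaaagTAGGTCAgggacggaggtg
Nfil3 (chr13:52981040-52981099, minus strand): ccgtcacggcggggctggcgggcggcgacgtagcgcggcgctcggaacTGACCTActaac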

How the data were processed

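Stranded libraries of polyadenylated RNA (TruSeq Stranded mRNA kit) were sequenced from 8 hypothalami, per the labels. Values are raw gene counts as deposited, in a table whose columns were matched to libraries by the short names in the labels. Per the submitters' processing notes, the build was mm10 and the tools were featureCounts, HISAT2 2.0.4, HISAT, Trimmomatic, SAMtools and DESeq2, with their order not stated. Neither the annotation release nor the strand setting is given in the sources used here. Symbols (55227 of 55487 genes), exon lengths and overlaps come from GENCODE M21 (GRCm38).

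The test of these counts was that of edgeR 4.0.16 (R 4.3.3), with filterByExpr (minimum count 10, minimum total 15; 17047 genes kept), TMM scaling, quasi-likelihood F test with group as the only term, Benjamini-Hochberg adjustment over all genes kept, threshold 0.05. The SE is the log2 fold change over the root of F, and the 95% interval uses the test's degrees of freedom, without adjustment for the number of genes. Log2 CPM used a prior count of 2. The test was checked on simulated data. The members and gene lists were chosen with earlier results of these data known. Named genes are the 10 factors, the other clock genes called or, in a list without a call, that with the smallest p, and the 3 genes closest in profile to the factor with the smallest p (mean of at least 1 CPM). Some of these are not reported here. Promoter windows came from RefSeq GRCm38.p6. Alternatives were DESeq2 1.42.0, RLE or no scaling, no filter, a replicate block, each library left out, and normoxia replicate 2 with hypoxia replicate 4 left out, which had stood apart in earlier results.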

Additional observations from a re-analysis of the deposited data

Results flagged for a closer look

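In a group of 4 libraries, 3 values lay far from the rest (the gap to the nearest library over the whole range exceeded or met Dixon's critical value). Nfil3 was at 14.4 CPM in normoxia replicate 2, against 7.67 to 8.56 CPM in the other normoxia libraries. Bhlhe40 was at 82.4 CPM in hypoxia replicate 4, against 118 to 125 CPM in the other hypoxia libraries. Ciart was at 8.63 CPM in normoxia replicate 4, against 7.01 to 7.12 CPM in the other normoxia libraries. Groups of 4 were examined 32 times, and chance flags about 1 in 20 such groups. Their causes were not tested.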

How the results depend on the processing

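Of the 10 clock factors, 0 were called in 12 of 14 alternatives. DESeq2 called 1 (Tef, log2 0.18), and 1 was called without both normoxia replicate 2 and hypoxia replicate 4 (Nr1d2, log2 −0.23). Clock, Nr1d1, Nr1d2, Tef and Hlf kept their sign in all 14. Signs that turned belonged to genes that were not called. Without both libraries Arntl was at 0.01, Npas2 at 0.14, Nfil3 at 0.18 and Dbp at −0.02, and with library size alone Dbp was at −0.03. With each library left out in turn, Arntl ran from −0.11 to 0.03, Npas2 from −0.16 to 0.29, Rora from −0.23 to 0.25, Nr1d2 from −0.21 to −0.12, Dbp from −0.07 to 0.14 and Nfil3 from −0.19 to 0.16. Calls among the other clock genes were 8 with DESeq2, 5 with library size alone and 10 without both libraries, against 3, and 0 to 8 with each library left out. Calls over all genes were 1008 with DESeq2 and 1195 without both libraries, against 366, and 26 to 693 with each library left out (693 without hypoxia replicate 4, 675 without normoxia replicate 2). The cause was not tested. Replicate numbers are shared by the groups, and deviations of same-numbered libraries had correlations of −0.105 to 0.043. Correlations over the genes tested cannot decide whether these libraries share more than a number. With a replicate block 0 of the 10 factors, 0 other clock genes and 21 of all genes were called, and Npas2 was at 0.03; Ciart was at 1.28 (edgeR adjusted p = 0.0792), Bhlhe40 at 0.67 (0.0726) and Pdxk at 0.29 (0.124). No scaling moved the median of all genes by more than 0.03 on the log2 scale. Depth limits Nfil3 most, with 147 to 271 counts per library.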

Other observations

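Of 10 genes that mark the suprachiasmatic nucleus, all were tested and 0 were called. The highest in most libraries was Zfhx3, at 45.5 to 52.5 CPM in hypoxia and 26.8 to 48.1 CPM in normoxia. Six6, a transcription factor gene of that nucleus, was at 4.69 to 5.90 CPM in hypoxia and 2.29 to 7.58 CPM in normoxia, and Nms, which encodes neuromedin S, at 0.629 to 1.26 CPM in hypoxia and 0.479 to 1.09 CPM in normoxia. Normoxia replicate 2 was the lowest library for 5 of the 10 (Six6, Nms, Lhx1, Gpr176 and Zfhx3) and the highest for 4 (Vip, Prokr2, Syt10 and Rasl11b). Vip, which encodes a peptide that couples the cells of that nucleus, was at 6.87 to 8.50 CPM in hypoxia and 7.17 to 13.9 CPM in normoxia. The summed level of the 10 genes was 120.0 to 132 CPM in hypoxia and 112 to 175 CPM in normoxia, where the 175 CPM of replicate 2 held 73.1 CPM of Rasl11b, a gene at 10.7 to 13.5 CPM in the other 7 libraries. The ratio of Clock to Npas2, in CPM per kb of exon, was 1.57 ± 0.400 in hypoxia and 1.70 ± 0.529 in normoxia (mean ± SD of 4 libraries each), with overlapping groups.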
